A study of Mus musculus with 42 samples.

Results

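The oligodendrocyte lineage was followed through 9 genes, Olig1, Olig2, Sox10, Pdgfra, Nkx2-2, Cspg4, Gpr17, Cnp and Mbp. These were chosen by name as transcription factors, receptors and myelin genes of that lineage, with earlier results of these data known. They are 9 of 52636 genes counted in the RNA-seq files, and all 9 were among the 17173 genes with enough reads to be tested. 6 of the 9 belong to early stages and are marks of progenitor cells (Olig1, Olig2, Sox10, Pdgfra, Nkx2-2 and Cspg4), 1 belongs to committed precursors (Gpr17) and 2 belong to late, myelin-forming stages (Cnp and Mbp).

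RNA-seq had been made from forebrain neuronal cultures of embryonic day 16 mice, with 3 libraries for each of 3 genotypes. Euploid mice have the normal number of chromosomes, Ts65Dn mice carry an extra chromosome made of the distal part of chromosome 16 and the proximal part of chromosome 17, and Ts65Dn;Brwd1+/- mice carry the same extra chromosome together with a mutant Brwd1 allele (repro5) inherited from the father. All 3 genotypes were kept on one mixed background, the cultures were treated with AraC to hold back dividing glia, and the labels give each as pooled male and female. SMARCA2/4 ChIP-seq, which maps the ATPase subunits of the BAF remodelling complex, came from adult male hippocampus, taken at 6 to 8 weeks of age (4 immunoprecipitated libraries per genotype, animals pooled), and ATAC-seq of open chromatin came from hippocampal nuclei of 6-week-old males, sorted for the neuronal protein NeuN (3 libraries per genotype).

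Oligodendrocyte progenitors arise from ventral and later dorsal parts of the embryonic forebrain. The bHLH factors OLIG1 and OLIG2 specify and maintain them, SOX10 acts with OLIG2 as a lineage factor, NKX2-2 accompanies the step to differentiation, PDGFRA is the receptor for the PDGF growth signal, and CSPG4 (NG2) is a surface proteoglycan that pericytes also carry. Precursors that have left the cycle pass through a stage marked by the receptor GPR17 and then make myelin proteins such as CNP and MBP. Olig1 and Olig2 lie on the chromosome 16 segment that is present in an additional copy in Ts65Dn, whereas the other members do not.

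Checks of Brwd1 and of sex-linked genes bear on every comparison with the libraries labelled Ts65Dn;Brwd1+/-. Brwd1, which lies on the triplicated segment, stood at 89.4 ± 3.66 CPM (counts per 1e+06 counts of the library after scaling, mean ± SD, n = 3) in euploid, 127 ± 2.13 in Ts65Dn and 139 ± 12.3 in the libraries labelled Ts65Dn;Brwd1+/-. Its fitted difference between the trisomic groups was 0.13 ± 0.08 log2 units (± SE, edgeR quasi-likelihood test, adjusted p = 0.186), so read counts of the mutated gene do not check that label. Xist, the RNA of the inactive X, lay between 0.526 and 1.12 CPM in the euploid and Ts65Dn libraries and between 1409 and 1982 CPM in the libraries labelled Ts65Dn;Brwd1+/-. The 4 Y-linked genes Ddx3y, Eif2s3y, Kdm5d and Uty summed to 194 to 223 CPM in the euploid and Ts65Dn libraries and to 0.0557 to 0.149 CPM in those labelled Ts65Dn;Brwd1+/-. These values go against the labels' pooled male and female, since euploid and Ts65Dn libraries read as male and those of the third group as female. Sex and the Brwd1 genotype therefore cannot be told apart in these comparisons, and directions are given for the libraries as labelled. Total counts in genes ranged from 17270070 to 25892802 per library.

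Olig1 and Olig2, the triplicated pair, are separated by 41095 bases (Olig2 at chr16:91225457-91228677 and Olig1 at chr16:91269772-91271933, both on the plus strand, mm10). Olig1 had 193, 251 and 215 CPM in the 3 euploid libraries, 385, 470 and 500.3 CPM in Ts65Dn, and 596, 496 and 512 CPM in the libraries labelled Ts65Dn;Brwd1+/-. Every trisomic library was above every euploid library, and the 2 trisomic groups overlapped. Olig2 had 36.6, 39.04 and 43.5 CPM in euploid, 57.9, 55.7 and 59.2 CPM in Ts65Dn and 230, 177 and 200.3 CPM in the libraries labelled Ts65Dn;Brwd1+/-. The 3 groups of Olig2 did not overlap.

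The sequence around the start of Olig2 is shown because the gene differs between all 3 groups. It is the RefSeq promoter window at chr16:91225300-91225599 (GRCm38.p6, plus strand), it is 65% G or C and it holds 25 CpG sites against a median of 7 over 32851 promoters.
Olig2 promoter: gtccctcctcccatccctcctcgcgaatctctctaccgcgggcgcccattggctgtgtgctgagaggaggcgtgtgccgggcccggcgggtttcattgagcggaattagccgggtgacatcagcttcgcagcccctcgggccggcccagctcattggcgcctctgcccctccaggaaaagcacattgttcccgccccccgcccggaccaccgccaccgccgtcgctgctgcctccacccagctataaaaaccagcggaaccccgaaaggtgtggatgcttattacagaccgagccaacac
Neither CAGCTG, an E-box of the kind that bHLH factors bind, nor ACAAAG, a core that SOX factors bind, was found in it on either strand, so no letters are in capitals. Of all promoter windows of that length, 16.3% hold CAGCTG and 18.7% hold ACAAAG.

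Olig1 rose in Ts65Dn against euploid, with a log2 fold change of 1.04 ± 0.13 (± SE, adjusted p = 0.000246). Olig2 rose as well, by 0.54 ± 0.10 log2 units (adjusted p = 0.00241). In bulk RNA, more cells of the lineage and more RNA per cell cannot be told apart. A gene present in 3 copies in place of 2, with no other change, would be at 0.585 log2 units. The 134 tested genes of the triplicated segment had a median of 0.63 (quartiles 0.24 and 0.99), of which 92 were called higher and 7 lower. In descending order of change, Olig1 ranked 32 and Olig2 ranked 74 among these 134 genes.

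**Figure D1:**
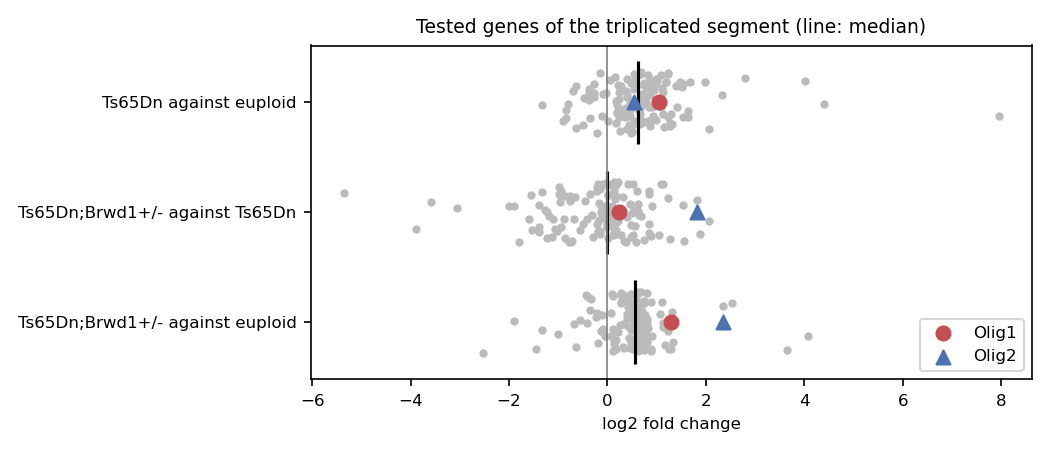
Log2 fold changes (x axis) of the 134 tested genes of the triplicated segment in each of 3 comparisons (rows), with a black line at the median of each row; the vertical scatter within a row has no meaning. Olig1 (red circle) stands to the right of the median in Ts65Dn against euploid and Olig2 (blue triangle) is far to the right where the libraries labelled Ts65Dn;Brwd1+/- are compared with either other group.

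Against Ts65Dn, Olig2 was higher by 1.81 ± 0.10 log2 units in the libraries labelled Ts65Dn;Brwd1+/- (adjusted p = 9.84e-07), and ranked 3 within the segment. Olig1 differed by 0.24 ± 0.13 there (adjusted p = 0.132) and ranked 39. Against euploid, the same libraries were higher by 2.35 ± 0.11 for Olig2 (adjusted p = 1.47e-06) and by 1.28 ± 0.13 for Olig1 (adjusted p = 0.000103). Segment genes had a median of -0.01 against Ts65Dn and 0.55 against euploid.

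The balance between the pair was read from their levels per length. Per length of exon, the level of Olig1 was 6.50 ± 0.912 times that of Olig2 in euploid (SD, n = 3), 9.17 ± 1.21 times in Ts65Dn and 3.10 ± 0.158 times in the libraries labelled Ts65Dn;Brwd1+/-. The ratio was highest in each Ts65Dn library and lowest in each library labelled Ts65Dn;Brwd1+/-, with no overlap between groups. For each of the 3 pairs of groups, permuting libraries exactly (two-sided, log2 ratio) gave p = 0.1, which is the smallest p that 3 against 3 allows, and the Benjamini-Hochberg value over the 3 pairs is also 0.1.

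The peak list of SMARCA2/4 in euploid hippocampus came nearest to Olig1 with a peak 6086 bases before its start, at chr16:91263490-91263686 (mm10), with a fold enrichment of 4.77 and a q-value of 5.12e-05. The authors' annotation names it for the promoter of Gm37016, not for Olig1. Its sequence is shown as the nearest SMARCA2/4 region to Olig1 in euploid tissue.
Peak before Olig1: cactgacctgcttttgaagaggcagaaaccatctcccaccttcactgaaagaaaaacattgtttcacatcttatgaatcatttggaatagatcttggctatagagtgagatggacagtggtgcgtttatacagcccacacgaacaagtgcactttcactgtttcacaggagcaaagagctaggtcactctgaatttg
It holds neither CAGCTG nor ACAAAG, which 14% and 12.1% of 200-base windows centred on peaks of that list hold. The nearest SMARCA2/4 peak to Olig1 in the list labelled Ts65Dn;Brwd1+/- lay 10645 bases beyond the start (q-value 0.0452) and that of Ts65Dn 559870 bases before it (q-value 0.750). In neuronal ATAC-seq, the nearest open region in Ts65Dn was 44477 bases beyond the start of Olig1, and the nearest in euploid and in the list labelled Ts65Dn;Brwd1+/- were 102953 and 102851 bases beyond it. No list named Olig1 or Olig2, and depth per peak library is unknown.

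Sox10, Pdgfra, Nkx2-2 and Cspg4 complete the early members. Sox10 (chr15:79154908-79165240, minus strand), the SOX factor of the lineage, had 2.57, 1.84 and 3.00 CPM in euploid, 8.00, 3.06 and 2.82 CPM in Ts65Dn and 57.7, 37.4 and 50.2 CPM in the libraries labelled Ts65Dn;Brwd1+/-. The first Ts65Dn library alone stood above the others of its group. Pdgfra (chr5:75152292-75198215, plus strand), the PDGF receptor, had 19.2, 16.9 and 20.6 CPM in euploid, 18.6, 11.7 and 13.8 CPM in Ts65Dn and 135, 114 and 136 CPM in the libraries labelled Ts65Dn;Brwd1+/-. The euploid and Ts65Dn groups overlapped and the libraries labelled Ts65Dn;Brwd1+/- stood far above both.

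Nkx2-2 (chr2:147177546-147194243, minus strand), a homeobox factor, was low throughout, with 0.534, 0.702 and 0.956 CPM in euploid, 1.06, 1.58 and 1.28 CPM in Ts65Dn and 2.99, 3.23 and 3.02 CPM in the libraries labelled Ts65Dn;Brwd1+/-. The antisense gene Nkx2-2os covers 10161 bases of its span, introns included, and had means of 0, 0.0885 and 0.0732 CPM in the 3 groups. The library kit does not mark the strand, so reads of shared bases cannot be told apart by strand. Cspg4 (chr9:56865033-56899870, plus strand) had 6.21, 6.97 and 7.38 CPM in euploid, 16.4, 18.7 and 19.2 CPM in Ts65Dn and 52.0, 36.8 and 41.6 CPM in the libraries labelled Ts65Dn;Brwd1+/-. Groups did not overlap for either gene.

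**Figure D2:**
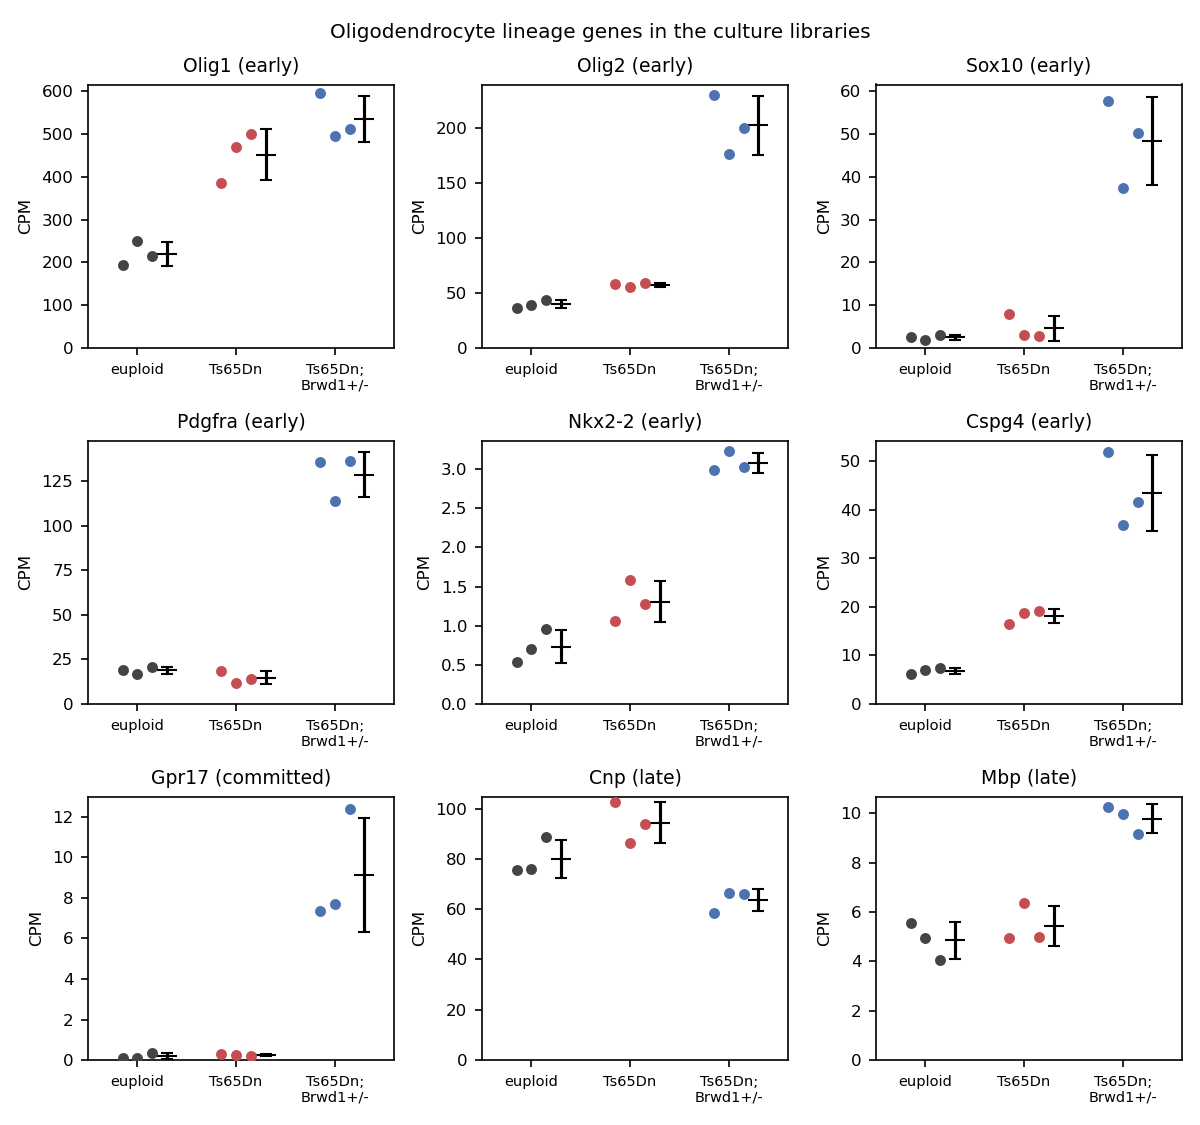
CPM (y axis, from 0) of the 9 genes in each culture library (points, x axis by genotype), with mean and SD (n = 3) as a black mark beside them; each panel has its own scale. Olig2, Nkx2-2 and Cspg4 step up from euploid to Ts65Dn to the libraries labelled Ts65Dn;Brwd1+/-, Sox10, Pdgfra, Gpr17 and Mbp stand out in the last group, and Cnp is lowest there.

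Between Ts65Dn and euploid, 4 of the 9 members were called higher (Olig1, Olig2, Cspg4 and Nkx2-2) and 0 lower at an adjusted p under 0.05, where 25.6% and 21.1% of all tested genes were called higher and lower. The groups did not overlap at 4 members (Olig1, Olig2, Nkx2-2 and Cspg4), as at 56.8% of all tested genes. The median log2 fold change of the members was 0.54 and that of all tested genes 0.04. Cspg4 rose most, by 1.40 ± 0.14 log2 units (adjusted p = 5.94e-05). Nkx2-2 rose by 0.82 ± 0.25 (adjusted p = 0.0208), a call lost without euploid replicate 1 or 2 or without Ts65Dn replicate 2 (adjusted p = 0.0704, 0.0604 and 0.0726). Sox10 had 0.93 ± 0.41 (adjusted p = 0.0866) and 0.25 without the first Ts65Dn replicate (adjusted p = 0.485). Without the third it was called higher, at 1.196 (adjusted p = 0.0189). Pdgfra had -0.36 ± 0.16 (adjusted p = 0.0869), -0.57 and a call without Ts65Dn replicate 1 (adjusted p = 0.0062), and -0.22 without Ts65Dn replicate 2 (adjusted p = 0.268). With replicate numbers as a block on the euploid and Ts65Dn libraries alone, Pdgfra was called lower at -0.42 (adjusted p = 0.0365). Sox10 was not called there, at 0.77 (adjusted p = 0.0986). The block over all 9 libraries called both (0.85 and adjusted p = 0.0404 for Sox10, -0.38 and adjusted p = 0.0221 for Pdgfra). The labels do not state that same-numbered libraries are paired.

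Gpr17, Cnp and Mbp gave no call at this threshold in that comparison. Gpr17, the receptor of committed precursors, had 2, 2 and 8 reads in euploid and 7, 5 and 4 reads in Ts65Dn. The ratio of the summed reads, scaled for library size, was 1.27 with a 95% exact interval of 0.564 to 2.95, which covers counting error only. The fitted log2 fold change of 0.36 went to 1.27 without euploid replicate 3 and to 0.02 without euploid replicate 2. Cnp (chr11:100574904-100591729, plus strand), an enzyme of the myelin sheath, had 75.6, 75.8 and 88.6 CPM in euploid and 103, 86.3 and 94.0 CPM in Ts65Dn (log2 fold change 0.24 ± 0.09, adjusted p = 0.0609), and was called higher without Ts65Dn replicate 2 (0.30, adjusted p = 0.0429). Mbp, a structural protein of compact myelin, had 5.53, 4.96 and 4.05 CPM in euploid and 4.94, 6.37 and 4.99 CPM in Ts65Dn (0.16 ± 0.15, adjusted p = 0.406).

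The libraries labelled Ts65Dn;Brwd1+/- differed from Ts65Dn at 8 of the 9 members. 7 of them (Olig2, Sox10, Pdgfra, Nkx2-2, Cspg4, Gpr17 and Mbp) were called higher and 1 (Cnp) lower, against 27.6% and 30.5% of all tested genes. The groups did not overlap at 8 members, as at 68.4% of all tested genes. Gpr17 is in both counts although it was tested only because of its reads in the libraries labelled Ts65Dn;Brwd1+/-, so it is no support for either. Sox10 was higher by 3.37 ± 0.34 log2 units (adjusted p = 2.38e-05; 4.04 without Ts65Dn replicate 1) and Pdgfra by 3.12 ± 0.16 (adjusted p = 5.48e-07). Nkx2-2 was higher by 1.24 ± 0.20 (adjusted p = 0.000456) and Cspg4 by 1.26 ± 0.13 (adjusted p = 2.37e-05).

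Gpr17 moved furthest. The libraries labelled Ts65Dn;Brwd1+/- had 165, 138 and 332 reads (7.36, 7.68 and 12.4 CPM), 635 in all against 16 in Ts65Dn and 12 in euploid. The ratios of summed reads were 41.7 (95% exact interval 25.5 to 73.3) and 53.0 (30.1 to 103), with counting error only. Euploid replicate 3 held 8 of the 12 euploid reads, and the fitted log2 fold change against euploid went from 5.61 to 6.52 without it. Gpr17 was tested only because of its reads in the libraries labelled Ts65Dn;Brwd1+/-, so its calls there are a description. Gpr17 lies on the minus strand within Lims2 on the opposite strand, and Lims2 itself had a mean of 0.582, 1.12 and 2.12 CPM in the 3 groups.

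The late members moved apart. Mbp had 10.3, 9.97 and 9.15 CPM in the libraries labelled Ts65Dn;Brwd1+/-, above every other library, and was higher by 0.85 ± 0.14 log2 units than in Ts65Dn (adjusted p = 0.000581). Cnp had 58.6, 66.6 and 65.9 CPM there, below every other library, and was lower, with a log2 fold change of -0.57 ± 0.09 (adjusted p = 0.000579). Dnajc7, on the opposite strand, covers 8912 bases of Cnp and had means of 173, 175 and 182 CPM in the 3 groups, so reads of shared bases cannot be told apart by strand.

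Against euploid, 8 of the 9 members were called higher in the libraries labelled Ts65Dn;Brwd1+/- and 1 lower, where 14% and 15.2% of all tested genes were called so. No member's groups overlapped, as for 45.9% of tested genes. Gpr17 is again in these counts, with the limit that it was tested only because of its reads in the libraries labelled Ts65Dn;Brwd1+/-. The changes of Sox10 (4.29 ± 0.37, adjusted p = 3.71e-05), Pdgfra (2.77 ± 0.16, adjusted p = 4.26e-06), Cspg4 (2.66 ± 0.14, adjusted p = 2.67e-06) and Nkx2-2 (2.06 ± 0.22, adjusted p = 0.000128) were each above 2 log2 units. Mbp was higher by 1.01 ± 0.14 (adjusted p = 0.000639). Cnp was lower, at -0.33 ± 0.09 (adjusted p = 0.0248), a call lost without euploid replicate 3 or without the first Ts65Dn;Brwd1+/- library (adjusted p = 0.0607 and 0.059). The comparisons share libraries, so they are not independent of each other.

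**Figure D3:**
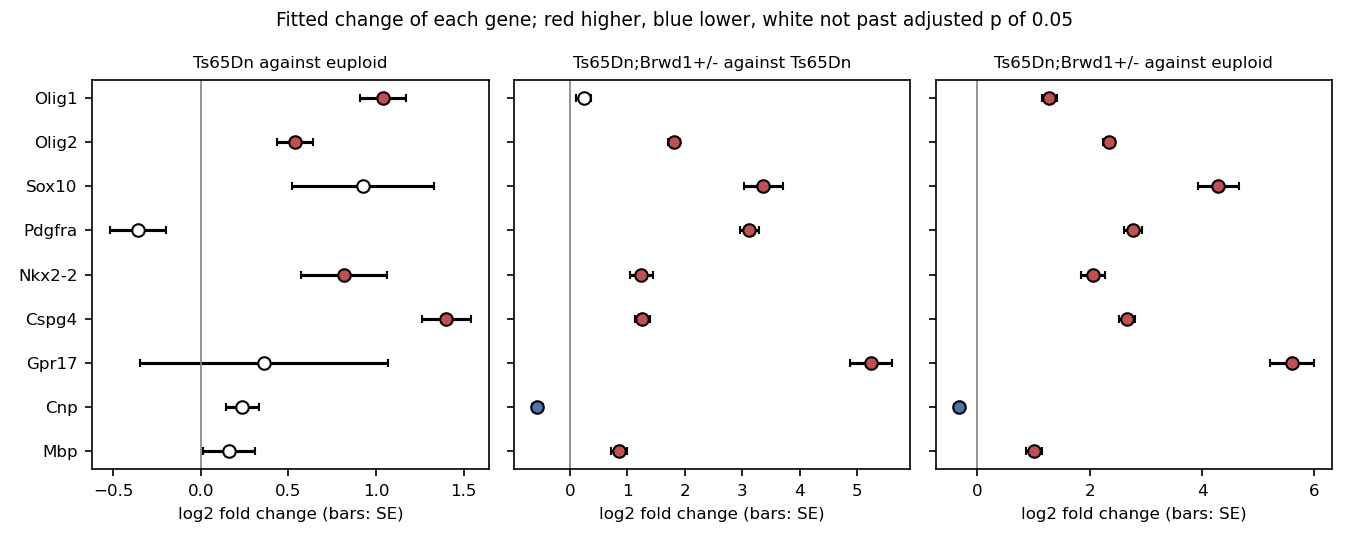
Log2 fold change (x axis, with SE) of each member (rows) in 3 comparisons (panels, each with its own range); filled red is called higher, filled blue lower and white not past an adjusted p of 0.05. In the 2 panels with the libraries labelled Ts65Dn;Brwd1+/-, Gpr17 is the farthest to the right and Cnp the single member to the left of 0.

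In absolute terms the order of levels per kilobase of exon was led by Olig1 in every group, with 102 CPM per kb in euploid, 209 in Ts65Dn and 247 in the libraries labelled Ts65Dn;Brwd1+/-. Cnp followed in euploid and Ts65Dn (21.99 and 25.9 CPM per kb), ahead of Olig2 (15.7 and 22.8), whereas Olig2 (79.9) stood ahead of Cnp (17.5) in the libraries labelled Ts65Dn;Brwd1+/-. Sox10 and Cspg4, and Cspg4 and Mbp, overlapped in euploid. Cspg4, Sox10 and Pdgfra were not separated in Ts65Dn, nor were Cnp, Sox10 and Pdgfra among neighbours in the libraries labelled Ts65Dn;Brwd1+/-. Gpr17 was last in euploid and Ts65Dn, and Nkx2-2 and Mbp overlapped at the foot of the order in the third group.

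Early against late, the mean log2 CPM of the 6 early members minus that of Cnp and Mbp was -0.78 ± 0.20 in euploid (SD, n = 3), -0.30 ± 0.12 in Ts65Dn and 1.42 ± 0.20 in the libraries labelled Ts65Dn;Brwd1+/-. The range was -0.96 to -0.57 in euploid, -0.42 to -0.18 in Ts65Dn and 1.21 to 1.60 in the third group, without overlap. The early mean lay at 3.41 to 3.69 in euploid, 4.14 to 4.32 in Ts65Dn and 5.90 to 6.22 in the third group. The late mean lay at 4.26 to 4.37, 4.45 to 4.56 and 4.62 to 4.69, so the difference moved mainly through the early members. Those include the triplicated Olig1 and Olig2. The difference is a description, and no test was made on it.

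Further genes of the lineage were taken from 3 lists of other markers. Their counts, and those of every list after them, stand against 25.6% of all tested genes called higher and 21.1% lower in Ts65Dn against euploid, 27.6% and 30.5% in the third group against Ts65Dn, and 14% and 15.2% in the third group against euploid. Of 11 tested progenitor genes, 3 were called higher and 5 lower in Ts65Dn against euploid, with a median of -0.27. Matn4, a matrix protein, rose by 2.80 ± 0.23 log2 units (adjusted p = 1.81e-05) and Tnr, tenascin-R, fell (log2 fold change -1.01 ± 0.31, adjusted p = 0.0221). Against Ts65Dn, 8 of the 11 were called higher and 2 lower in the libraries labelled Ts65Dn;Brwd1+/-, with a median of 0.95. The proteoglycan gene Vcan was higher by 2.33 ± 0.12 (adjusted p = 5.04e-07), at 29.6 ± 2.39 CPM in euploid, 17.01 ± 2.61 in Ts65Dn and 85.8 ± 7.06 in the third group. Matn4 was lower there (-3.004 ± 0.23, adjusted p = 5.09e-06). Against euploid, 7 of the 11 were called higher and 0 lower, among them Lhfpl3 (1.68 ± 0.14, adjusted p = 3.68e-05) and Vcan (1.54 ± 0.11, adjusted p = 1.72e-05).

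Of 7 tested genes of committed precursors, 6 were called higher and 0 lower in Ts65Dn against euploid. Bcas1, a marker of newly forming oligodendrocytes, had 1 to 2 reads per library in euploid, 18 to 30 in Ts65Dn and 24 to 64 in the libraries labelled Ts65Dn;Brwd1+/-. Nkx6-2 had 1 to 5, 10 to 22 and 20 to 26 reads in the same order. Bcas1 and Nkx6-2 were tested only because of their reads in the trisomic groups, so their calls against euploid are a description. In the libraries labelled Ts65Dn;Brwd1+/-, 3 genes were called higher and 3 lower than in Ts65Dn. Zfp488, a zinc finger factor of the lineage, had 0 to 12 reads per library in Ts65Dn and 85 to 144 there, and Bmp4, a BMP ligand, was lower (-2.45 ± 0.18, adjusted p = 3.61e-06). Against euploid, 5 were called higher and 1 (Bmp4) lower, and Bcas1, Nkx6-2 and Zfp488 are among the 5. The 8 listed genes summed to 63.6 to 74.2 CPM in euploid, 132 to 162 in Ts65Dn and 60.3 to 71.7 in the third group, so the sum overlapped between euploid and the third group although 5 genes were called higher there.

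The 8 tested genes of myelinating cells did not share a direction. 2 were called higher and 2 lower in Ts65Dn against euploid, 4 higher and 3 lower when the libraries labelled Ts65Dn;Brwd1+/- were set against Ts65Dn, and 3 higher and 2 lower against euploid. Ugt8a, which makes a myelin lipid, was higher by 1.99 ± 0.24 log2 units against euploid (adjusted p = 0.000238). Aspa, aspartoacylase, had 25 to 27 reads per library in Ts65Dn, 2 to 4 in euploid and 0 to 2 in the libraries labelled Ts65Dn;Brwd1+/-. Ermn, counted as higher in the third group against both others, had 2 to 6 reads per library in euploid, 0 to 2 in Ts65Dn and 12 to 19 in the third group. Aspa was tested only because of its reads in Ts65Dn, and Ermn and Zfp488 only because of those in the third group. Summed levels of the list lay between 25.3 and 31.7 CPM in every library, and the 12 progenitor genes summed to 1448 to 1618 CPM in euploid, 1197 to 1296 in Ts65Dn and 1995 to 2137 in the third group.

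**Figure D4:**
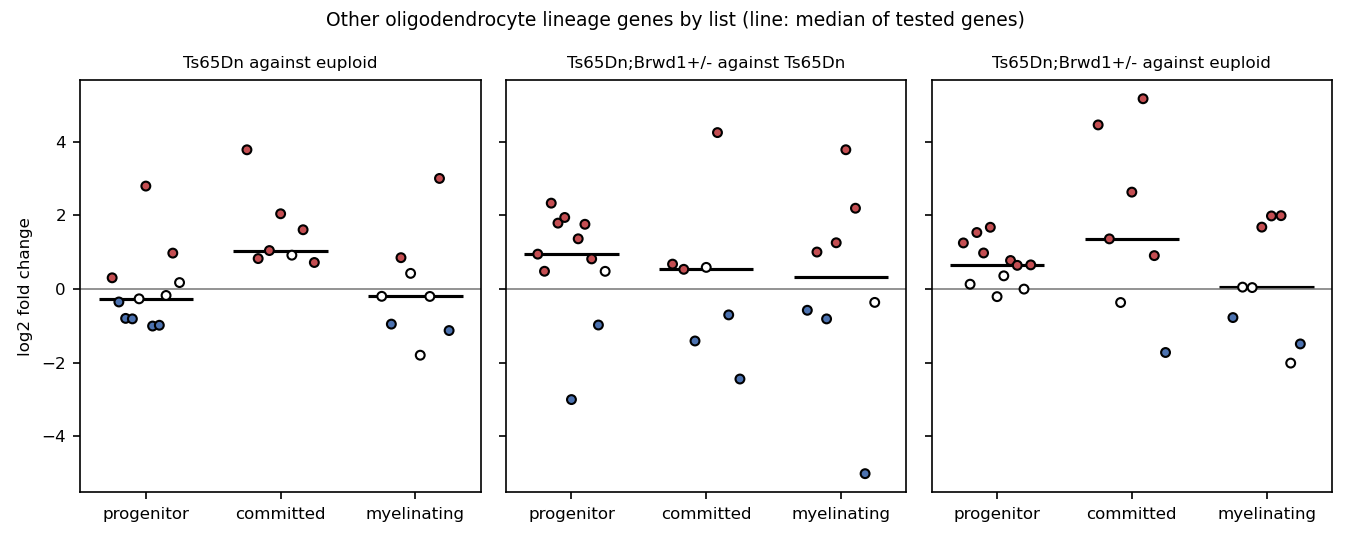
Log2 fold change (y axis) of the tested genes of 3 marker lists (x axis: progenitor, committed precursor, myelinating) in 3 comparisons (panels); filled red is called higher, blue lower, white not called, and the line is the median of the list. The committed list is mainly red in Ts65Dn against euploid, the progenitor list is mainly red in the other panels, and the myelinating list has both colours in each.

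The PDGF ligands and the other PDGF receptor, Pdgfrb, formed a further list. Of 5 tested genes, 3 were called higher and 0 lower in Ts65Dn against euploid and 0 higher and 4 lower when the libraries labelled Ts65Dn;Brwd1+/- were set against Ts65Dn, and 1 was called higher and 2 lower in them than in euploid. Pdgfd, whose product signals mainly through PDGFRB, rose by 1.05 ± 0.13 log2 units in Ts65Dn (adjusted p = 0.000194) and was lower in the third group than in Ts65Dn (-1.90 ± 0.13, adjusted p = 2.82e-06). Among 6 inhibitors of oligodendrocyte differentiation, 2 were called higher and 3 lower in Ts65Dn against euploid, 2 higher and 2 lower in the third group against Ts65Dn, and 2 higher and 2 lower in the third group against euploid, so the list had no shared direction. Hes5, an effector of Notch, was lower in Ts65Dn (-1.81 ± 0.21, adjusted p = 0.000156) and higher in the libraries labelled Ts65Dn;Brwd1+/- than in euploid (1.70 ± 0.17, adjusted p = 7.89e-05).

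Genes of other cells also differed between the groups, in part in the direction opposite to the members, and several of the counts lie near the shares of all tested genes given above (25.6% and 21.1% in Ts65Dn against euploid, 27.6% and 30.5% in the third group against Ts65Dn). All 10 genes of ventral forebrain and interneurons were called lower in Ts65Dn against euploid and higher when the libraries labelled Ts65Dn;Brwd1+/- were set against Ts65Dn, and they summed to 358 to 421 CPM in euploid, 94.2 to 152 in Ts65Dn and 774 to 880 in the third group. Dlx2, a factor of ventral progenitors, had 13.2 ± 0.760, 6.77 ± 1.76 and 105 ± 14.2 CPM in the 3 groups. All 6 cell cycle genes were called higher in Ts65Dn against euploid and 5 in the third group against Ts65Dn, with summed levels of 168 to 178, 234 to 271 and 398 to 419 CPM. Of 8 astrocyte genes, 5 were called higher and 2 lower in Ts65Dn against euploid and 2 higher and 5 lower in the third group against Ts65Dn, and they summed to 2877 to 3629, 3469 to 4012 and 3349 to 3863 CPM.

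Of 6 radial glia genes, 3 were called higher and 2 lower in Ts65Dn against euploid and 2 higher and 3 lower in the third group against Ts65Dn, and they summed to 4443 to 5088 CPM in euploid, 6805 to 8498 in Ts65Dn and 3682 to 4215 in the third group. Glutamatergic neuron genes summed to 404 to 548, 72.4 to 288 and 427 to 585 CPM, and 4 of 6 were called lower in Ts65Dn and 4 higher in the third group against Ts65Dn. Pericyte genes, of interest because pericytes carry Cspg4, summed to 102 to 125, 153 to 208 and 122 to 139 CPM, with 3 of 4 tested called higher in Ts65Dn. In the third group, 0 of the 4 were called higher and 3 lower than in Ts65Dn, and 1 higher and 0 lower than in euploid. Anpep had 5 to 13 reads per library in euploid, 19 to 32 in Ts65Dn and 4 to 8 in the third group. It was tested only because of its reads in Ts65Dn, so its calls are no support for a difference. Fibroblast genes summed to 64.4 to 108, 123 to 185 and 37.0 to 46.3 CPM, with 2 of 6 called higher and 4 lower in Ts65Dn and 1 higher and 4 lower in the third group against Ts65Dn. Microglia genes summed to 7.19 to 11.8, 3.36 to 5.06 and 1.12 to 1.69 CPM, with 2 of 4 tested called lower in Ts65Dn and 3 lower in the third group against Ts65Dn. Ventral midbrain and hindbrain genes summed to 10.97 to 15.2, 8.00 to 12.1 and 8.96 to 10.4 CPM, and 3 of 6 were tested. Among them were Foxa2, a floor plate factor, with 0 to 1 read per library in euploid, 25 to 42 in Ts65Dn and 0 to 2 in the third group, and Nkx6-1, a ventral neural tube factor, with 0 to 1, 29 to 35 and 0 reads. Both were tested only because of their reads in Ts65Dn, so their calls are no support for a difference. The part of these cells in the members' values was not tested.

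Likeness of pattern was measured as Pearson's r of log2 CPM over the 9 libraries, which fall into 3 groups, and is given as a description. The genes most like Olig1 were Rpa2 (0.993), Lbr (0.986), Tk1 (0.983), Rack1 (0.983) and Cdk1 (0.983), and 86 genes were above 0.95. Those most like Olig2 were Lmnb1 (0.996), Cep72 (0.994), Espl1 (0.993), Alyref (0.992) and Pbx3 (0.992), and 212 genes were above 0.95. Olig2 had an r of 0.78 with Olig1, 0.97 with Sox10, 0.97 with Gpr17 and -0.73 with Cnp.

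In the adult hippocampal peak lists, peaks named 4 of the 9 members, namely Mbp, Cnp, Cspg4 and Pdgfra. The SMARCA2/4 lists held 22667 peaks in euploid, 1290 in Ts65Dn and 1873 in the list labelled Ts65Dn;Brwd1+/-, so an absent peak in the smaller lists cannot be told apart from a shorter list, and the same holds for euploid in ATAC-seq. They named 2, 1 and 2 members, where 29.3%, 3.24% and 3.70% of 21951 protein-coding genes were named. The ATAC-seq lists held 15521, 29195 and 30244 peaks and each named 2 members, where 41.1%, 51.9% and 51.8% of protein-coding genes were named. ATAC-seq nuclei had been sorted for NeuN, which oligodendrocytes lack, whereas ChIP-seq used whole tissue. Each genotype has 1 list per assay, so no replicate error could be had.

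Mbp was named by 7, 2 and 1 SMARCA2/4 peaks and by 1, 3 and 2 ATAC-seq peaks in euploid, Ts65Dn and the third group. An intronic region about 61 kb from its start was in all 6 lists. The ATAC-seq peaks there had fold enrichments of 4.49, 5.39 and 4.11 and q-values of 1.92e-19, 6.89e-32 and 1.77e-26. SMARCA2/4 peaks overlapped between the genotypes with q-values of 0.000680 in euploid, 0.0177 in Ts65Dn and 0.5001 in the third list, of which the last does not pass a q-value of 0.05. The euploid SMARCA2/4 list also had a peak in exon sequence 68 bases past the start of Mbp (q-value 0.0544), and the Ts65Dn ATAC-seq list had an open region over the start (q-value 3.51e-16).

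Cnp was named by 2 SMARCA2/4 peaks of the euploid list, at chr11:100574988-100575043 and chr11:100575119-100575390 (fold enrichments of 3.77 and 4.02, q-values of 0.00668 and 0.00227). The first lies wholly in exon sequence and the second has 100 bases in exons and 172 in an intron. The RefSeq promoter window of Cnp (chr11:100574689-100574988, GRCm38.p6, plus strand) ends where the first peak begins and is shown for that reason, with its single ACAAAG in capitals.
Cnp promoter: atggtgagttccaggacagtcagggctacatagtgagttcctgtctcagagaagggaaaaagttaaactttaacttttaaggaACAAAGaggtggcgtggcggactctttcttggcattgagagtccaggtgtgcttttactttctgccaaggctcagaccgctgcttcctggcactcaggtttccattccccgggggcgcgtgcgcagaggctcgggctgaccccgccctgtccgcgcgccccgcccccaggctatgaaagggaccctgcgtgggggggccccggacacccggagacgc

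Cspg4 was named by 2 ATAC-seq peaks in Ts65Dn, 3 in the list labelled Ts65Dn;Brwd1+/- and 0 in euploid, whose nearest open region lay 68569 bases before the gene. An intronic pair, at chr9:56868355-56868600 and chr9:56869595-56869841 in Ts65Dn, overlapped between the trisomic lists. The second of these holds the SMARCA2/4 peak of the list labelled Ts65Dn;Brwd1+/- (chr9:56869789-56869837, fold enrichment 4.35, q-value 0.00742). It is shown because the 2 assays meet there, with the 49 bases of the SMARCA2/4 peak in capitals (mm10, plus strand).
Cspg4 intronic region: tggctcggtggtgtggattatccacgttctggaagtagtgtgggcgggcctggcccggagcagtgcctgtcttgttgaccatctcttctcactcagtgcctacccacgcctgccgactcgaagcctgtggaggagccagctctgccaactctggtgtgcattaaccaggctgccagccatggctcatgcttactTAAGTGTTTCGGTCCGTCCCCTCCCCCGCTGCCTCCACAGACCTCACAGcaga
Whether Cspg4 expression in the cultures and this region are related was not tested.

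**Figure D5:**
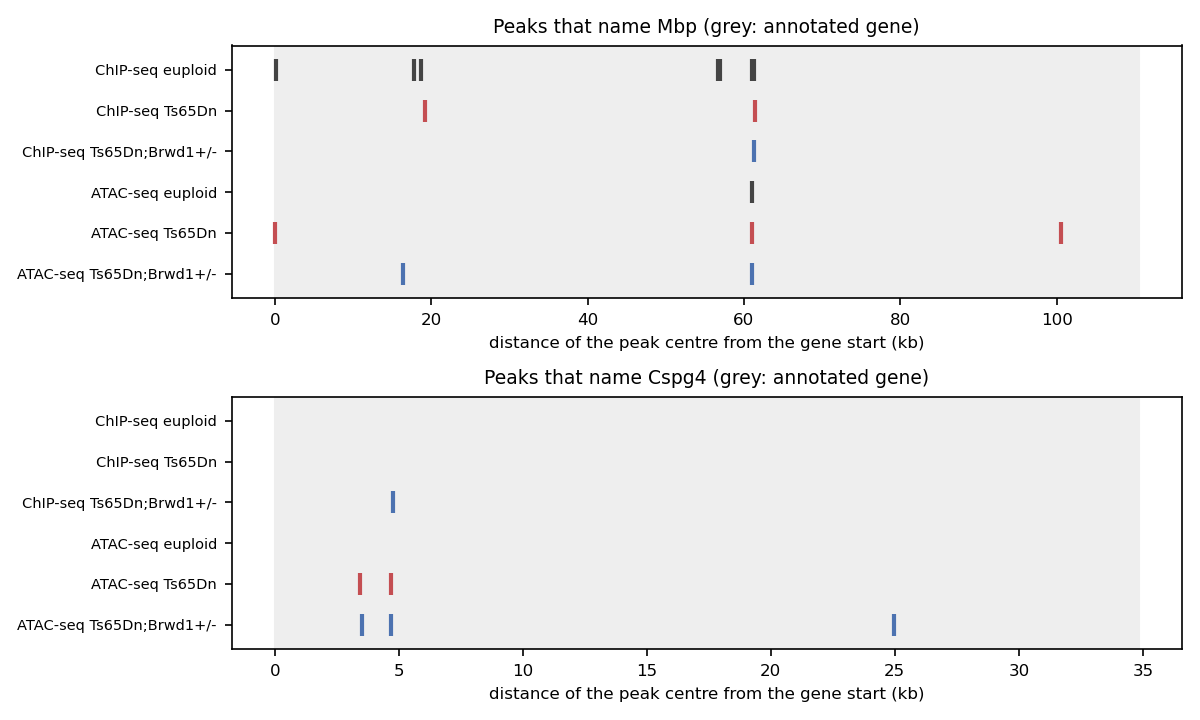
Positions of the peaks that name Mbp (top) and Cspg4 (bottom) as distance of the peak centre from the gene start in kb (x axis) in 6 lists (rows: SMARCA2/4 ChIP-seq, then ATAC-seq), coloured by genotype, with the annotated gene in grey. A mark near 61 kb of Mbp is in all 6 rows, and Cspg4 has none in the euploid rows.

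Pdgfra was named by 1 ATAC-seq peak, in euploid alone (chr5:75156210-75156432, fold enrichment 3.99, q-value 9.31e-11), 3918 bases beyond the start of the gene, with 140 bases in exons. The nearest open regions in Ts65Dn and in the list labelled Ts65Dn;Brwd1+/- were 95108 and 94973 bases beyond it. No peak of any list named Sox10, Nkx2-2 or Gpr17. Of the other lineage genes (12 progenitor, 8 committed and 12 myelinating), the euploid SMARCA2/4 list named 4, 1 and 1, where 29.3% of protein-coding genes were named. The Ts65Dn SMARCA2/4 list named 1, 0 and 0 (3.24% of protein-coding genes) and the third list 0, 0 and 0 (3.70%). The ATAC-seq lists named 2, 0 and 1 in euploid (41.1%), 4, 4 and 3 in Ts65Dn (51.9%) and 4, 4 and 2 in the third list (51.8%).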

How the data were processed

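RNA of 9 culture libraries (3 genotypes, 3 each) was analysed, with 6 peak lists. The members and all gene lists were chosen with earlier results of these data known. The authors aligned reads to mm10 with HISAT2 and deposited raw read counts per gene. The paper names featureCounts, whereas the files end in lines of the kind htseq-count writes. Lines naming no gene (37.4 to 40.0% of counts) were left out. The authors kept uniquely mapped, deduplicated reads for peaks, called them with MACS2 (ChIP-seq against input, ATAC-seq with shifted reads), gave 1 list per genotype and assay and deposited a fold enrichment (ratio over background) and a q-value per peak. How replicate libraries were combined is not given in the sources used here. The stated filter (q-value under 0.05, fold over 1.2) is passed by 87.8%, 31.8% and 58.2% of the peaks in the euploid, Ts65Dn and Ts65Dn;Brwd1+/- ChIP-seq lists and by all ATAC-seq peaks.

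Genes were filtered with filterByExpr and scaled by TMM. The 9 libraries were fitted together with genotype alone in edgeR 4.0.16 (R 4.3.3), with the quasi-likelihood F-test and Benjamini-Hochberg adjustment over 17173 genes. Genes at an adjusted p under 0.05 were called. The fit was tested on simulated data. CPM used the TMM factors, and log2 CPM a prior count of 2. Intervals cover counting error only. Annotation was GENCODE, and 99.6% of identifiers matched. Sequences came from RefSeq (GRCm38.p6), which held promoter windows of 5 printable members, of which those of Olig2 and Cnp are shown. The p-values measure the spread between these libraries, whose cultures the labels do not tie to animals.

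The named genes are the 9 members, at most the 2 called genes of largest change per list and comparison, the 5 genes most like Olig1 and Olig2, and Brwd1. Xist, the Y-linked genes and genes that overlap a member were named after their values were seen. Deviations of same-numbered libraries correlated weakly, at 0.129, 0.206 and 0.263 between euploid and Ts65Dn. With the third group the correlations were 0.096, -0.162 and 0.186 for euploid and 0.279, -0.125 and 0.206 for Ts65Dn. Differently numbered libraries were not compared, so a pairing was not shown. A replicate block was fitted over all 9 libraries and, chosen after seeing the data, over the 6 euploid and Ts65Dn libraries. Alternatives were scaling, filters, DESeq2 1.42.0, limma 3.58.1, a replicate block, 1 RUVr-type factor, the 6 libraries of a contrast, leave-one-out and an adjusted p of 0.1. Python 3.11.15 was used for peaks. Results with peaks have no replicate error.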

Additional observations from a re-analysis of the deposited data

How the results depend on the processing

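Olig1, Olig2 and Cspg4 kept their calls in Ts65Dn against euploid under all 20 alternatives, as did Olig2, Sox10, Pdgfra, Nkx2-2, Cspg4, Cnp and Mbp under 19, and Gpr17 under 18, when the libraries labelled Ts65Dn;Brwd1+/- were set against Ts65Dn. Gpr17 has no value where at least 10 counts were required in every library, nor, for Ts65Dn against euploid, in fits of the 6 libraries alone. Gpr17 was tested only because of its reads in the libraries labelled Ts65Dn;Brwd1+/-, so its kept calls are a description and no support. Over all member values, 495 kept their direction and their side of the threshold, 16 gained a call, 5 lost one and 1 reversed, which was Mbp in Ts65Dn against euploid, at -0.0020 without euploid replicate 3 (adjusted p = 0.993) and up to 0.26 without euploid replicate 1. The number of members called lower in Ts65Dn against euploid went from 0 to 1 (Pdgfra) with no filter on low counts, with a replicate block, with a replicate block on the 6 libraries alone (added after seeing the data), with 1 RUVr-type factor and at an adjusted p of 0.1. Without 1 replicate it ranged from 0 to 1. The number called higher there went from 4 to 5 with no filter, DESeq2, upper-quartile scaling or a replicate block over 9 libraries, to 6 with 1 RUVr-type factor or at an adjusted p of 0.1, and ranged from 3 to 5 without 1 replicate. Sox10 was called with no filter (adjusted p = 0.00852), DESeq2 (0.035) and the RUVr-type factor (0.0283), and Cnp with upper-quartile scaling (0.0439) and the RUVr-type factor (0.0312). For the libraries labelled Ts65Dn;Brwd1+/-, the number lower than in euploid also ranged from 0 to 1 without 1 replicate. Lineage list genes called higher in Ts65Dn against euploid went from 11 to 7 where at least 10 counts were required in every library, which tests fewer genes. Under the stated filter, member peaks in the Ts65Dn and Ts65Dn;Brwd1+/- SMARCA2/4 lists went from 2 to 1 each. The cause was not tested. The replicate block over 9 libraries changed no call of a member other than those of Sox10 and Pdgfra. The block over the 6 euploid and Ts65Dn libraries changed that of Pdgfra alone. Depth limits Gpr17 in euploid and Ts65Dn, which rests on 12 and 16 reads.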
